A study of Homo sapiens with 16 samples.

Results

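The cells described here are the cluster deposited under the name Macro-M2, one of the 7 monocyte and macrophage clusters that the authors annotated in mouse mammary tumors. Members were the cells carrying that name in the deposited cell annotation of 16 single-cell RNA-seq libraries, and their values came from the raw count matrices. Of 48824 cells kept, 5411 were Macro-M2, with 3567 in the long-term experiment, 670 in short-term T22 and 1174 in short-term T127. All tumors were pieces of the transplantable LPA1-T22 or LPA1-T127 lines, which arose in mice expressing a lysophosphatidic acid receptor in the mammary epithelium, placed in the mammary fat pad of female FVB mice aged 6 weeks. Mice received vehicle or olaparib, an oral inhibitor of the DNA repair enzyme PARP, at 50 mg/kg daily for 4 or 8 days (short-term, each line in its own pools) or 20 days (long-term, each line alone or both lines on opposite sides of 1 mouse). The study asked what makes the T22 model sensitive and the T127 model resistant to the drug. It proposes that tumor macrophages contribute to the difference.

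Macrophages in tumors derive from circulating monocytes that enter the tissue and from macrophages already resident there. The name M2 refers to alternative activation, the state that interleukin-4 and related signals induce in culture, for which the mannose receptor Mrc1 (CD206) and the arginine-degrading enzyme Arg1 are common markers. C5ar1 encodes the receptor for the complement fragment C5a, Cd68 a lysosomal glycoprotein found across macrophages, and Ccl8 a chemokine.

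Each library was a pool of hashtagged tumors. The files used here do not assign cells to tumors. Cells of vehicle and olaparib tumors could therefore not be separated. In the long-term experiment, Macro-M2 cells of T22 and T127 tumors could not be separated either. Each long-term ratio may therefore compare cells with a different mix of the lines, also when all pools lie in the same direction. The part of that mix was not tested. Each experiment is treated as 1 sample read in 8 (long-term) or 4 pools (each short-term line). The labels do not say whether the pools of an experiment hold the same tumors. Pools are not replicate tumors, and no test between groups was run. Differences below are given as levels or ratios, many of them with the range over pools. Where a 95% interval (exact Poisson or binomial) is given, it covers counting error only. In the long-term pools 4146 barcodes occurred in more than 1 pool, 3939 of them shared by pools 1 and 2, and only 1372 had the same cluster name in every copy. The deepest copy was kept, which removed 150 Macro-M2 copies. Median depth of Macro-M2 cells was 9663.5 to 11987 UMIs per long-term pool, 12968.5 to 13818 in T22 and 10387.5 to 12155 in T127. The shallowest other cluster, CD16-CDKN1C, had 33.1% of its long-term and 60.9% of its T22 cells under 3000 UMIs.

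Macro-M2 made up 23.1% of long-term monocytes and macrophages (22.4 to 23.8%, pools 18.2 to 30.03%). The share was 8.52% in T22 (7.91 to 9.16%, pools 7.38 to 9.19%) and 53.4% in T127 (51.3 to 55.5%, pools 48.8 to 56.1%). Clusters were set by genes that themselves differ between the experiments, so these shares describe the deposited annotation and are not a comparison of abundance.

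The 4 genes taken as markers of the cluster were not equally informative. Levels are shares of all UMIs summed over cells, in counts per 1000000 (CPM), and the comparison is with all other monocyte and macrophage clusters of the same pools. Since the clusters were built from these same genes, these levels are a description. In the long-term pools, Mrc1 was at 456 to 765 CPM in Macro-M2 (median 503) and at 159 to 233 CPM in the other clusters (median 190), a ratio of 2.78 (2.73 to 2.84) with no overlap. Ccl8 was at 536 to 1649 CPM (median 1019) against 166 to 412 CPM (median 336), 3.55-fold (3.5 to 3.6). C5ar1 was 1.59-fold higher (1.55 to 1.63), with pools at 177 to 296 CPM against 116 to 185 CPM. Cd68 differed least, at 636 to 795 CPM against 612 to 662 CPM (1.13-fold, 1.11 to 1.14). Pools of Macro-M2 and of the other clusters overlapped for C5ar1 and Cd68.

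Across the 7 clusters of the long-term experiment, Macro-M2 had the highest level of each of the 4 markers. Mrc1 ran from 535 CPM in Macro-M2 through 343 CPM in Macro-MKI67 (dividing macrophages by its name) and 284 CPM in CD14-IL1B to 107 CPM in Macro-M1. For Cd68 the next cluster, Macro-M1, was at 705 CPM against 725 CPM. In T22 the order of Ccl8 was different, with CD16-CDKN1C at 61.6 CPM above Macro-M2 at 43.4 CPM, and in T127 CD16-CDKN1C (495 CPM) was again above Macro-M2 (235 CPM).

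In T22, Mrc1 in Macro-M2 was at 209, 116, 147 and 257 CPM in pools 1 to 4, against 51.9, 68.8, 60.3 and 64.8 CPM in the other clusters. In T127 it was at 1068, 1006, 974 and 1134 CPM against 600, 596, 621 and 520 CPM. All 4 Macro-M2 pools were above all 4 pools of the other clusters in each model, 3.02-fold in T22 and 1.79-fold in T127. C5ar1 was higher in both, 2.19-fold in T22 and 2.08-fold in T127. Ccl8 in T22 was at 9.28, 30.1, 37.5 and 95.4 CPM in Macro-M2 and at 25.8, 24.8, 14.9 and 33.8 CPM in the other clusters, so the groups overlapped. Cd68 in T22 was at 451 CPM against 443 CPM.

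**Figure D1:**
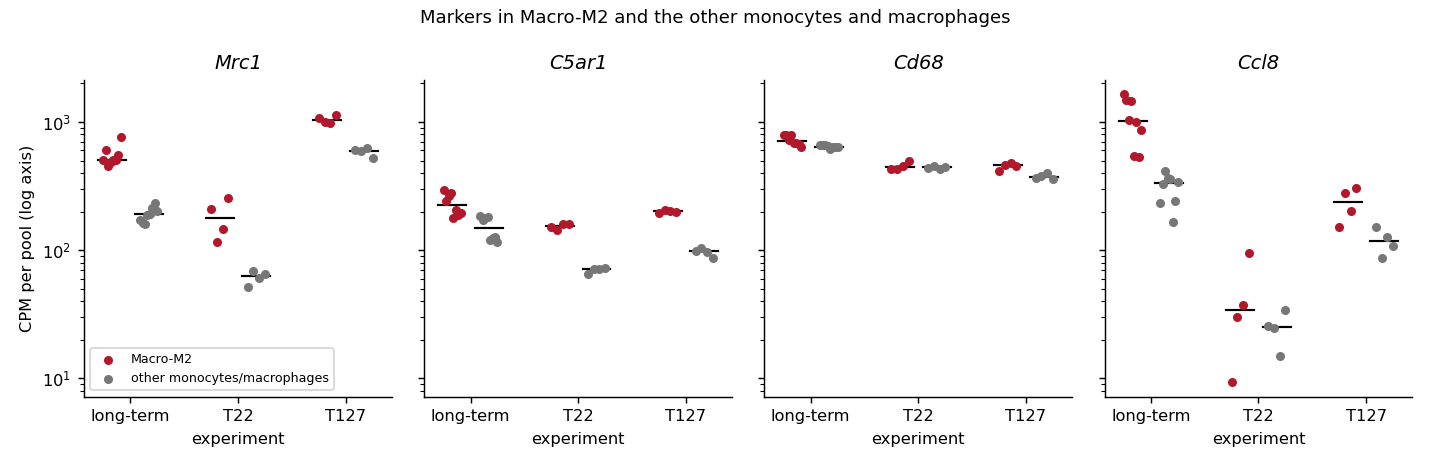
Level of Mrc1, C5ar1, Cd68 and Ccl8 in CPM (log axis) in each pool of the 3 experiments, for Macro-M2 (red) and all other monocyte and macrophage clusters (grey), with a bar at the median pool. Mrc1 does not overlap between the groups in any experiment, whereas Cd68 and C5ar1 overlap in the long-term pools, Cd68 in T22 and Ccl8 in both short-term models.

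At 3000 UMIs per cell few single cells had a UMI of all 4 markers, and a gene that is present can be missed at that depth. After each cell was thinned to 3000 UMIs, 43.2% of long-term Macro-M2 cells had an Mrc1 UMI (61.8% unthinned), 42.3% a C5ar1 UMI (71.8%), 81.1% a Cd68 UMI (97.5%) and 17.2% a Ccl8 UMI (27.0%). In the other monocytes and macrophages the thinned shares were 23.2%, 31.1%, 78.8% and 8.10%. T and NK cells, which should lack these genes, had 1.27%, 0.685%, 4.11% and 6.26% (median depth 5164 UMIs before thinning against 11255.5 in Macro-M2). The thinning left out 57 Macro-M2 cells, 2117 other monocytes and macrophages and 683 T and NK cells. Of 3510 thinned long-term Macro-M2 cells, 251 (7.15%) had a UMI of all 4 markers and 248 (7.07%) of none. All 4 were seen in 3 of 670 T22 cells and 53 of 1174 T127 cells, and none in 17.2% and 6.05%.

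Genes of the resident macrophage and chemokine lists were among those higher in Macro-M2 in the long-term pools. A gene was counted as higher or lower when it reached 5 CPM in either group, differed at least 2-fold over all pools on the scale of CPM plus 1, and lay in the same direction in every pool with at least 10 cells on both sides, a minimum set after the cell numbers were seen. By that rule 69 of 8617 genes were higher (0.801%) and 95 were lower (1.1%), 1.9% in either direction. With the mean of per-cell CPM the counts were 77 and 62, and with every other cluster weighted equally 47 and 125. Among 15 resident macrophage genes, 9 were higher and none lower, with a median log2 ratio of 1.28 against 0.01 over all genes measured. Folr2, a folate receptor of tissue macrophages, was at 95.3 to 148 CPM (median 123) against 32.2 to 44.5 CPM (median 39.6), 3.10-fold (2.97 to 3.23). F13a1, the coagulation factor XIII A chain, was at 135 to 412 CPM (median 224) against 41.0 to 78.6 CPM (median 57.5), 3.65-fold. The groups did not overlap for either gene. Cbr2, a carbonyl reductase, was 3.07-fold higher, and Lyve1, a hyaluronan receptor of perivascular macrophages, reached 33.9 CPM against 11.3 CPM. Gas6, a ligand of the TAM receptors that mediate uptake of dying cells, was 2.43-fold higher and the growth factor Igf1 2.67-fold. Cd163, Vsig4 and Timd4 of the same list did not meet the rule.

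Of 21 chemokines measured, 8 were higher and 1 was lower (median log2 ratio 0.60). Ccl2, the main ligand of the monocyte receptor CCR2, was at 549 to 807 CPM (median 636) against 200 to 275 CPM (median 241), 2.71-fold (2.66 to 2.76). The related Ccl7 was at 431 to 691 CPM against 133 to 228 CPM, 3.28-fold. Pf4 (Cxcl4), best known from platelets, stood at 855 to 1568 CPM against 262 to 613 CPM, and Ccl6 at 1538 to 2867 CPM against 662 to 999 CPM. The lowest Macro-M2 pool was above the highest pool of the other clusters for all 4. The neutrophil attractant Cxcl3 was 3.07-fold higher, Ccl9 2.14-fold and the B cell attractant Cxcl13 2.46-fold, although Cxcl13 overlapped between groups (26.1 to 136 CPM against 3.49 to 90.1 CPM). Ccl17, a ligand of CCR4, was the chemokine counted as lower, at 79.4 CPM against 160 CPM.

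The alternative activation list, 13 genes measured, had only Arg1 and Fn1 counted. Arg1 was at 133 to 727 CPM (median 391) against 69.4 to 141 CPM (median 88.3), 4.10-fold (3.99 to 4.20), with the lowest Macro-M2 pool inside the range of the other clusters. The chitinase-like protein Chil3 (2.96-fold) and the resistin-like protein Retnla (2.37-fold) were higher in sum but not in every pool. Fn1, fibronectin, was at 384 to 1334 CPM against 239 to 307 CPM. Fibronectin was also abundant in other cells of the same pools, at 5678 CPM in the i_CAF fibroblasts, while T cells of the CD4_Tcm-TCF7 cluster were at 76.5 CPM, and the part of free RNA in the Macro-M2 level was not tested. Spp1, osteopontin, was 2.18-fold higher (1573 CPM against 723 CPM), in pools where the same T cells were at 970 CPM.

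Wfdc21, a small secreted protein, had the highest ratio of the genes above 50 CPM, 4.48-fold (4.32 to 4.66), at 40.7 to 439 CPM (median 172) against 28.2 to 60.0 CPM, with an overlap at the low end. The eosinophil-type ribonucleases Ear1 and Ear2 were 2.74-fold and 2.81-fold higher and Cd93, a C-type lectin-like membrane protein, 2.88-fold. In the matrix remodelling list 4 of 16 genes were higher, Fn1 with the metalloproteinases Mmp8, Mmp9 and Mmp19. Mmp8 is also on the neutrophil list, whose summed level was 113 to 722 CPM in Macro-M2 and 84.9 to 350 CPM in the other clusters, with all 7 markers above 0. Its part in these values was not tested.

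Cell cycle genes were among those that were lower. Of 12 listed, 7 were lower and none higher (median log2 ratio -1.12). The spindle protein Prc1 was at 17.6 CPM against 70.4 CPM, the topoisomerase Top2a at 47.8 CPM against 149 CPM and the proliferation marker Mki67 at 29.8 to 52.0 CPM (median 42.8) against 71.3 to 119 CPM (median 96.2). The other clusters include Macro-MKI67, and against Macro-M1 alone no cell cycle gene was counted in either direction.

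No gene of the MHC class II (9 measured), lysosomal (22), Fc receptor (6), iron and heme (12), interferon response (15) or transcription factor (22) lists was counted in the long-term pools. Since only 1.9% of all 8617 genes were counted, an empty list of this size is near that share and says little about its genes. Median log2 ratios were -0.24 for MHC class II, 0.10 for lysosomal genes, 0.11 for iron and heme and 0.14 for transcription factors. They were 0.43 for the interferon response and 0.43 for Fc receptors, against 0.01 over all genes measured. The MHC class II chain H2-Aa was at 6112 to 14731 CPM in Macro-M2 and at 9251 to 17418 CPM in the other clusters.

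**Figure D2:**
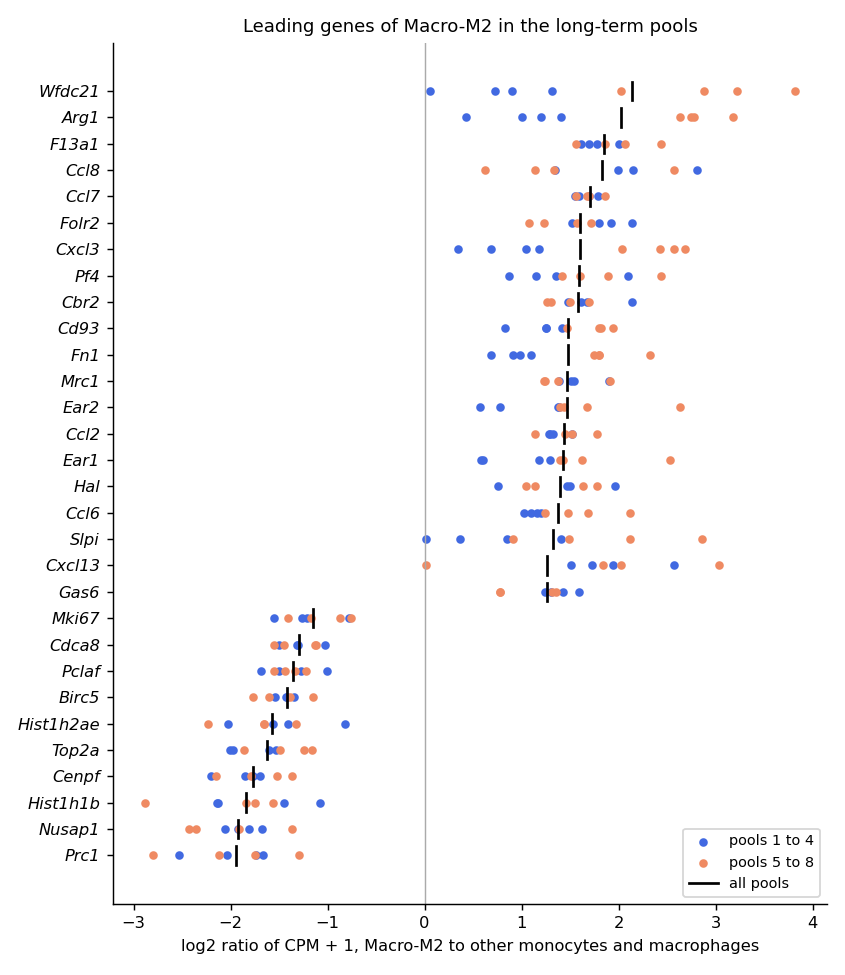
log2 ratio of CPM plus 1 between Macro-M2 and the other monocytes and macrophages in each long-term pool, for the 20 highest and 10 lowest counted genes of at least 50 CPM, with pools 1 to 4 in blue, pools 5 to 8 in orange and a bar for all pools together. The pools of Ccl7 are tightly grouped, whereas Wfdc21, Arg1 and Cxcl3 split by set of pools.

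Macro-M2 was also compared with single clusters. Compared with Macro-M1, 258 of 8525 genes were higher (3.03%) and 6 lower (0.0704%), 3.1% in either direction. Resident macrophage genes were higher for 11 of 15, classical monocyte genes for 9 of 12 and scavenger and lectin receptors for 7 of 16. Mrc1 was 5.02-fold higher (4.75 to 5.32), Ccl8 9.60-fold (9.09 to 10.2) and F13a1 11.1-fold (9.77 to 12.7). Ly6c2, a surface antigen of classical monocytes, was at 57.2 to 124 CPM in Macro-M2 and 2.66 to 41.0 CPM in Macro-M1, and Vcan, the proteoglycan versican, was 8.38-fold higher. The inducible nitric oxide synthase Nos2, a common marker of classical activation, was at 5.07 CPM (208 UMIs) in Macro-M2 and 0.170 CPM (2 UMIs) in Macro-M1, a ratio of 29.8 with a counting interval of 8.14 to 247.5. Arg1, at 390 CPM against 49.2 CPM, did not keep its direction in every pool.

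Compared with Macro-others, 197 of 8631 genes were higher (2.28%) and 87 lower (1.01%), 3.29% in either direction, or 227 and 43 with the mean of per-cell CPM and 206 and 33 after thinning. Here 11 of 15 resident macrophage genes and 9 of 12 classical monocyte genes were higher, Retnla 11.1-fold (10.6 to 11.6) and Arg1 5.57-fold (5.35 to 5.79). Compared with CD14-PF4, a cluster of 98 long-term cells, 297 of 9497 genes were higher (3.13%) and 285 lower (3%), 6.13% in either direction, or 453 and 253 with the mean of per-cell CPM and 584 and 113 after thinning. The split leaned the other way with a pseudocount of 10 CPM (126 and 201) and at 4-fold (46 and 152). Only pools with at least 10 CD14-PF4 cells entered the direction rule. These counts thus rest on fewer pools than those against Macro-M1 and Macro-others, and the shares are not comparable. All 4 markers were higher and 6 of 15 complement genes, among them C1qa of the first complement component (8632 CPM against 2758 CPM). Of 12 classical monocyte genes 5 were lower, with Ly6c2 at 91.4 CPM against 440 CPM. Pf4, the gene in that cluster's name, was at 1139 CPM in Macro-M2 and 416 CPM in CD14-PF4. All 8 T22 malignant markers were lower too, with summed levels of 123 to 174 CPM in Macro-M2 and 1789 to 5372 CPM in CD14-PF4.

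The study lists 25 genes for its own TAM_C3 subset, which it defined by reclustering these same cells, so the list is not independent evidence. Macro-M2 had the highest level among the 22 annotated clusters of the long-term experiment for 12 of the 25 genes, and among the monocyte and macrophage clusters for 16. Only Pf4 and Mrc1 met the counting rule there, and the median log2 ratio was 0.37.

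Macro-M2 was not uniform. Clustering its cells alone (Leiden, resolution 0.5) gave 13 sub-clusters of 46 to 1157 cells, named here by number and leading genes, and the genes that define them are a description. The markers were divided among them. Sub-cluster 2 (829 cells, led by Cxcl13, the cathepsin Ctsk, Ccl8, Igf1 and Cbr2) and sub-cluster 13 (46 cells, led by the endothelin receptor Ednrb, Clec3b and the lectin Cd209g) held 16.2% of the cells. They held 94.3% of all Ccl8 UMIs, 96.5% of Lyve1, 80.3% of Folr2, 72.0% of Cd163 and 42.5% of Mrc1. In the long-term experiment they were 19.1% of Macro-M2 cells. There they held 95.8% of Cxcl13, 87.4% of Cbr2, 78.4% of Gas6, 65.1% of Ccl7, 56.8% of F13a1 and 47.2% of Ccl2 UMIs, but 14.1% of Ccl6. The higher summed levels of the first of these genes thus came mostly from a small part of the cluster. Sub-cluster 13 was at 25517 CPM of Ccl8, 1568 CPM of Lyve1 and 520 CPM of Cd163, and its H2-Aa was at 180 CPM.

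Most long-term Arg1 UMIs lay elsewhere. Sub-cluster 6 (459 cells, led by Wfdc21, the lubricin gene Prg4, the carbonic anhydrase Car4, Fabp7 and Prtn3) held 88.6% of long-term Arg1 UMIs, 91.3% of Chil3, 95.5% of Wfdc21, 82.2% of Cxcl3, 67.4% of Fn1 and 59.0% of Spp1. Over all 3 experiments its shares were 59.6% of Arg1, 72.5% of Chil3, 89.8% of Wfdc21 and 40.7% of Spp1, with 21.3% of Arg1 in sub-cluster 4 and 8.85% in sub-cluster 7. The same sub-cluster held 84.8% of long-term UMIs of the neutrophil collagenase Mmp8 and 59.9% of those of the calcium-binding S100a8, both on the neutrophil list, at 261 and 713 CPM. S100a9, the partner of S100a8, was at 29.2 CPM there and Ly6g at 0. Sub-cluster 6 was at 2520 CPM of Arg1 and 18.0 CPM of Ccl8, whereas sub-cluster 2 was at 209 CPM of Arg1 and 4003 CPM of Ccl8. Retnla lay mostly in a further group, sub-cluster 3 (610 cells, with Lyz1, Cd209a, Cd209d and Ccr7), which held 83.1% of its UMIs at 2610 CPM, with 9.35 CPM of Arg1. The 46 cells of sub-cluster 13 held a further 6.22% of Retnla UMIs. The division between the Arg1 and Retnla groups depended on the resolution. At 0.3, 455 of the 459 cells of sub-cluster 6 and 351 of the 610 of sub-cluster 3 fell in the same sub-cluster, and at 0.8 the largest block of sub-cluster 3 was 349 cells, apart from sub-cluster 6. Sub-cluster 2 kept 824 and 823 of its 829 cells together, and at 0.3 all 46 cells of sub-cluster 13 joined them. Other divisions also closed at 0.3. All cells of sub-clusters 1 and 5 then fell in the same sub-cluster, as did 470 of the 578 cells of sub-cluster 4 and all 447 of sub-cluster 7.

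Sub-clusters 1, 5 and 8 had little Mrc1. Sub-cluster 1 (1157 cells, led by the cytokine Il1a, Adamdec1, Zmynd15, the collagenase Mmp13 and the adhesion molecule Vcam1) was at 69.4 CPM, sub-cluster 5 (463 cells, led by Adamdec1, Tlr12 and Asb2) at 53.6 CPM and sub-cluster 8 (360 cells, led by Rcan1, Itgb8 and Egr3) at 63.4 CPM. Together they held 1980 cells, 36.6% of Macro-M2, with 44.5% of the long-term and 58.7% of the T22 cells. In their long-term cells Mrc1 was at 69.9 CPM in sub-cluster 1 and 56.8 CPM in sub-cluster 5, below the 107 CPM of the long-term Macro-M1 cluster. Of the 360 cells of sub-cluster 8, 353 were from T22, with Mrc1 at 62.8 CPM, where the other monocytes and macrophages were at 51.9 to 68.8 CPM. Over all experiments their H2-Aa was at 14944, 18915 and 11007 CPM. C5ar1 was spread more evenly, between 95.3 CPM in sub-cluster 12 and 569 CPM in sub-cluster 13.

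**Figure D3:**
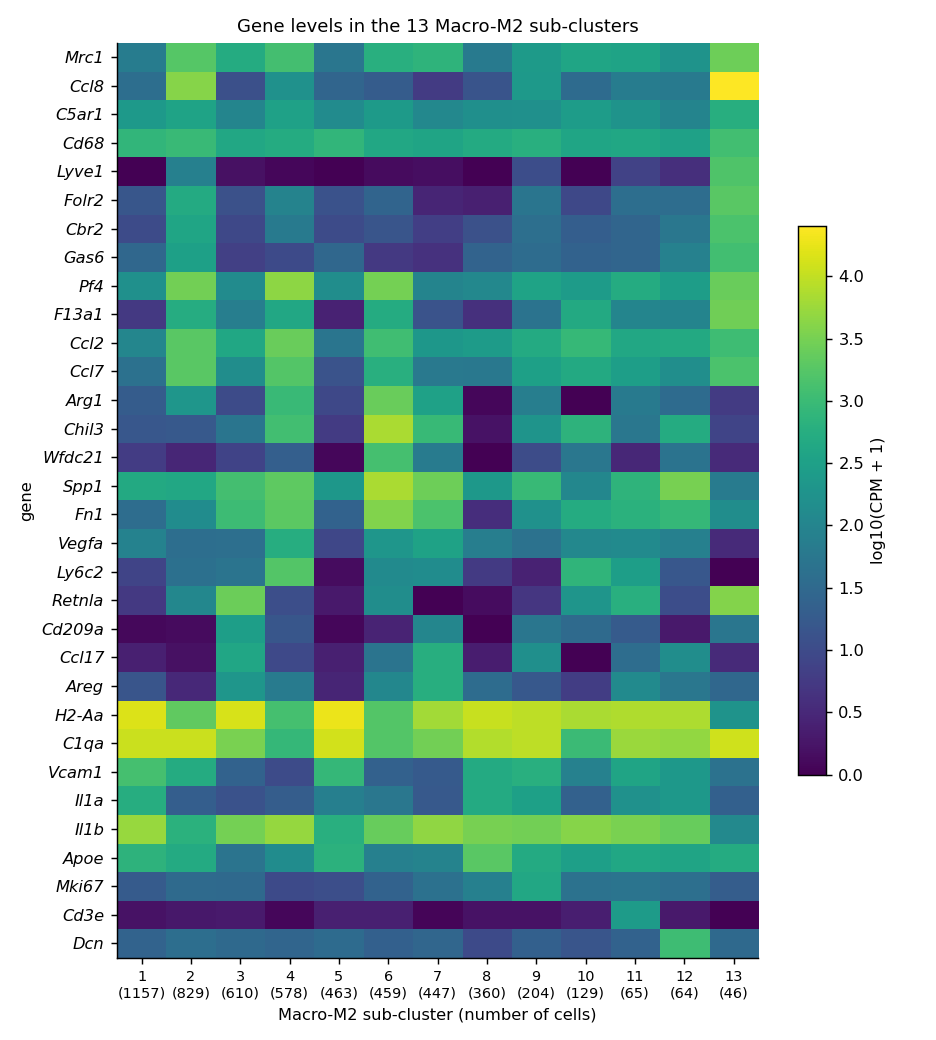
Level of selected genes, as log10 of CPM plus 1, in the 13 Macro-M2 sub-clusters, with the number of cells under each. Ccl8, Lyve1 and Folr2 peak in sub-clusters 2 and 13, Arg1, Chil3 and Wfdc21 in sub-cluster 6, and Retnla in sub-clusters 3 and 13, while Mrc1 is low in 1, 5 and 8.

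Sub-clusters followed the experiment. Sub-cluster 1 held 32.2% of long-term Macro-M2 cells and no T127 cell. Sub-cluster 8 held 52.7% of T22 cells, and sub-cluster 10 (129 cells, led by Adgre4, Chil1 and Treml4) a further 17.3%. Sub-clusters 4 (578 cells, led by Dmkn, Ppbp and Ly6c2) and 7 (447 cells, led by the EGF receptor ligand Areg, Plet1, Calcb and Ccl17) held 76.6% of T127 cells. The experiments were separate libraries, so whether such a sub-cluster is a cell state or a property of its libraries cannot be told apart. Within the long-term experiment each pool held 28.0 to 34.5% of its Macro-M2 cells in sub-cluster 1 and 14.6 to 23.5% in sub-cluster 2. Other sub-clusters split by pool, with sub-cluster 6 at 6.82 to 10.5% in pools 1 to 4 and 14.1 to 19.8% in pools 5 to 8, and sub-cluster 5 at 15.4 to 16.9% and 4.55 to 9.56%.

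Markers of other cell types were uneven among the sub-clusters. Sub-cluster 11 (65 cells) was at 262 CPM of the T cell receptor component Cd3e with T cell markers summed to 1599 CPM. Sub-cluster 12 (64 cells) was mixed, with summed levels of 2083 CPM for neutrophil, 1352 CPM for T22 malignant, 1219.8 CPM for fibroblast, 260.5 CPM for endothelial and 205 CPM for T127 malignant markers, and 1113 CPM of the fibroblast proteoglycan Dcn. Outside these, neutrophil markers were at 1009.9 CPM in sub-cluster 6, 536 CPM in 4 and 291 CPM in 1, and T22 malignant markers at 402 CPM in sub-cluster 3 and 289 CPM in 7. Of the 447 cells of sub-cluster 7, 435 were from T127, where no cell was annotated as T22 malignant. Dendritic cell markers were at 401 CPM in sub-cluster 3. Their part in the levels of these sub-clusters was not tested. Sub-cluster 9 (204 cells) was at 439 CPM of Mki67, a gene of dividing cells. No doublet caller was run here. Without sub-clusters 11 and 12, the only ones past 50 CPM of Cd3e or 10 times that of Dcn, the long-term comparison counted 72 genes higher and 132 lower. Only Macro-M2 was sub-clustered, so no such cells were left out of the other clusters. A rise in lower genes can follow from that alone.

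**Figure D4:**
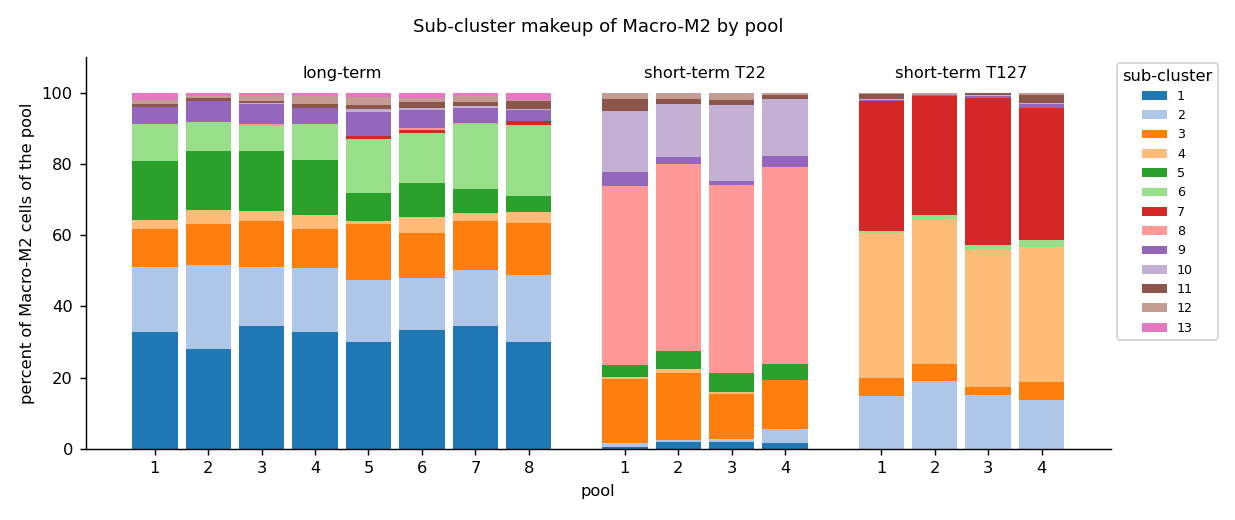
Percent of Macro-M2 cells of each pool in each of the 13 sub-clusters, as stacked bars for 8 long-term, 4 short-term T22 and 4 short-term T127 pools. In the long-term pools sub-cluster 5 is at 15.4 to 16.9% in pools 1 to 4 and 4.55 to 9.56% in pools 5 to 8, T22 is mostly sub-cluster 8 and T127 mostly sub-clusters 4 and 7.

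The 8 long-term pools fell into 2 sets, 1 to 4 and 5 to 8, for a reason the labels do not give. Between them 8 of 8640 Macro-M2 genes were counted as higher in pools 1 to 4 (0.0926%) and 47 as higher in pools 5 to 8 (0.544%), 0.637% in either direction. Arg1 was at 301, 243, 133 and 284 CPM in the first set and at 536, 481, 538 and 727 CPM in the second. Chil3 was at 320, 406, 221 and 608 CPM and then 1666, 1460, 1260 and 2772 CPM. C5ar1 went the other way, at 296, 241, 263 and 281 CPM and then 177, 207, 188 and 195 CPM. None of these overlapped. The share of mitochondrial UMIs (0.444 to 0.471% against 0.682 to 0.733%) and hemoglobin Hbb-bs (884 to 977 CPM against 2281 to 3049 CPM), an RNA of red blood cells, moved with the sets, and so did the share of sub-cluster 6, which held most long-term Arg1 and Chil3 UMIs. Their part was not tested. Within pools 1 to 4 alone 59 genes were higher in Macro-M2 and 113 lower than in the other clusters, and within pools 5 to 8 alone 110 and 102.

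In short-term T22, monocyte genes were among those higher in Macro-M2. Of 9140 genes, 97 were higher (1.06%) and 215 lower (2.35%) than in the other clusters, 3.41% in either direction. With the mean of per-cell CPM they were 276 and 258, and with equal weight for every other cluster 45 and 309. Of 12 classical monocyte genes 7 were higher, with a median log2 ratio of 1.11 against 0.04 over all genes. Ly6c2 was at 84.7 to 175 CPM against 13.8 to 29.0 CPM, 5.90-fold (5.45 to 6.39), and Plac8 at 352 to 489 CPM against 159 to 200 CPM. Fn1 was at 332, 230, 340 and 176 CPM against 47.8, 52.8, 67.6 and 81.6 CPM. Retnla was at 452, 161, 615 and 56.6 CPM against 49.4, 33.4, 41.2 and 38.7 CPM, above the other clusters in every pool but ranging more than 10-fold itself. These summed levels were not shared by all T22 Macro-M2 cells. Sub-cluster 8, which held 52.7% of them, was over all experiments at 3.74 CPM of Plac8, 2.70 CPM of Fn1 and 0.415 CPM of Retnla. Sub-cluster 10, with 17.3% of them, was at 2155 CPM of Plac8. Sub-cluster 3, with 15.8%, was over all experiments at 2610 CPM of Retnla. The lectin Cd209a was 3.31-fold higher, F13a1 3.83-fold and Ccl2 3.23-fold.

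Arg1 and Folr2, counted as higher in the long-term pools, were at low levels in T22. Arg1 had 1 UMI in all 670 cells (0.110 CPM) and 9 of 7191 other monocytes and macrophages had any. Folr2 was at 2.97 CPM against 4.42 CPM. Of the 8 resident macrophage genes measured only F13a1 was counted. Cell cycle genes were lower for 8 of 12, and dendritic cell markers were lower for 4 of 8 and higher for 1, the Cd209a named above, with Xcr1 of type 1 dendritic cells at 0.549 CPM against 46.8 CPM.

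In short-term T127, 120 of 9220 genes were higher in Macro-M2 (1.3%) and 534 lower (5.79%), 7.09% in either direction. The lower genes included 11 of 12 cell cycle and 6 of 7 dendritic cell genes, with Top2a at 21.8 CPM against 386 CPM and Mki67 at 31.1 to 46.5 CPM against 341 to 427 CPM. Macro-M1 had only 3 cells in T127, and Macro-MKI67 was 198 of the 1026 cells on the other side. Of 13 alternative activation genes 5 were higher and 1, the lipoxygenase Alox15, lower. Arg1 was at 486, 598, 622 and 587 CPM against 167, 192, 151 and 226 CPM, and Thbs1, thrombospondin, at 662, 656, 805 and 701 CPM against 213, 136, 170 and 186 CPM. Neither gene overlapped.

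Resident macrophage genes were higher for 5 of 13 and lower for 1, Timd4. Pf4 was at 1641 to 2166 CPM against 440 to 630 CPM, 3.67-fold (3.57 to 3.77). Of 21 chemokines 6 were higher, with Cxcl3 6.54-fold (6.11 to 7.02) and Ccl7 3.27-fold, and Ccl5, Ccl17 and Ccl22 were lower. The vascular growth factor Vegfa was 3.10-fold higher and the interleukin-1 antagonist Il1rn 2.27-fold. The epithelial marker Epcam was at 117 to 161 CPM in Macro-M2 and 351 to 504 CPM in the other clusters, while T127 malignant cells were at 1.43 CPM.

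The experiments were separate libraries with their own cells. Of the genes higher in Macro-M2, 16 were counted in both long-term and T22 (23.2% of the first list, 16.5% of the second), 28 in long-term and T127 (40.6% and 23.3%) and 19 in both short-term models (19.6% and 15.8%). In all 3 there were 8 higher genes, namely Ccl2, Cd93, Ear1, Ear2, F13a1, Fn1, the interferon-induced GTPase Iigp1 and Vcan. Iigp1 is named because of this count. Mrc1 is not among them, at 1.79-fold in T127. Of the lower genes, 89 were counted in all 3, among them 7 of the 12 cell cycle genes, Mki67, Top2a, Ccnb1, Ccna2, Cdk1, Birc5 and Rrm2. Most of the 89 are genes of cell division or histone genes, such as Prc1, Cenpf, Nusap1 and Hist1h1b. The other clusters include Macro-MKI67 in each experiment.

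The same cluster name covered different expression in the short-term models. Between Macro-M2 of T127 and of T22, pools did not overlap and the level differed at least 2-fold for 688 genes higher in T127 (7.43%) and 573 lower (6.19%) of 9254 tested, 13.6% in either direction. The tumor line and its libraries cannot be told apart here. Glycolysis and hypoxia genes were higher in T127 for 12 of 14, with 1 lower and a median log2 ratio of 1.22 against 0.08 over all genes. The glucose transporter Slc2a1 was at 95.4 to 119 CPM against 24.6 to 45.6 CPM, and the lactate dehydrogenase Ldha at 743, 726, 717 and 721 CPM against 306, 333, 292 and 301 CPM. Vegfa was at 408, 353, 365 and 362 CPM against 79.5, 78.3, 97.6 and 44.6 CPM, and the hypoxia-regulated factor Hif1a, from the transcription factor list, at 512 CPM against 65.5 CPM. Other cells differed between the models too. T and NK cells were at 400 CPM of Vegfa in T127 and 86.7 CPM in T22, and the other monocytes and macrophages at 719 and 326 CPM of Ldha.

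Of 12 alternative activation genes 10 were higher in T127 and none lower (median log2 ratio 1.65). Mrc1 was 5.64-fold higher (5.37 to 5.94), Chil3 8.29-fold (7.73 to 8.90) and the transglutaminase Tgm2 4.09-fold. Arg1, at 8139 UMIs in T127 and 1 in T22, had a ratio of 5209 with a counting interval of 935 to 205776. Retnla ran the other way without meeting the rule, at 6.93, 91.2, 7.26 and 0.547 CPM in T127 and 56.6 to 615 CPM in T22. C5ar1 was at 196 to 206 CPM against 144 to 160 CPM, 1.31-fold (1.23 to 1.40), and Cd68 at 452 CPM against 451 CPM. Of 12 classical monocyte genes 8 were higher and none lower, with Ly6c2 4.20-fold and Vcan 7.42-fold. The inhibitory Fc receptor Fcgr2b was at 1293 to 1378 CPM against 225 to 251 CPM.

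MHC class II genes were lower in T127 for 6 of 10, with none higher (median log2 ratio -1.16). Cd74, the invariant chain, was at 4677, 4500, 4987 and 5169 CPM against 11355, 11739, 14283 and 12611 CPM. H2-Aa was at 3335, 3499, 3861 and 4057 CPM against 10050, 10002, 9904 and 10506 CPM, and Ciita, the regulator of class II transcription, at 51.0 CPM against 119 CPM. H2-Eb1 and H2-DMa, at 0.77-fold and 0.98-fold, were not counted. The lipid carrier Apoe was at 237, 180, 141 and 213 CPM against 1259, 1200, 1232 and 1185 CPM, the fractalkine receptor Cx3cr1 at 65.9 to 70.9 CPM against 424 to 491 CPM and Il1a at 13.7 to 33.0 CPM against 233 to 360 CPM. The chemokines Ccl3, Ccl4 and Cxcl14 were lower in T127 (Ccl3 0.28-fold and Ccl4 0.22-fold), whereas Ccl2, Ccl6, Ccl7, Ccl8, Ccl9, Ccl17, Cxcl3 and Pf4 were higher. The other monocytes and macrophages lay in the same direction for Mrc1, Arg1 and class II genes, with Mrc1 at 586 CPM in T127 and 61.5 CPM in T22, Arg1 at 182 and 0.442 CPM, Cd74 at 5982 and 12711 CPM and H2-Aa at 4851 and 10857 CPM.

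**Figure D5:**
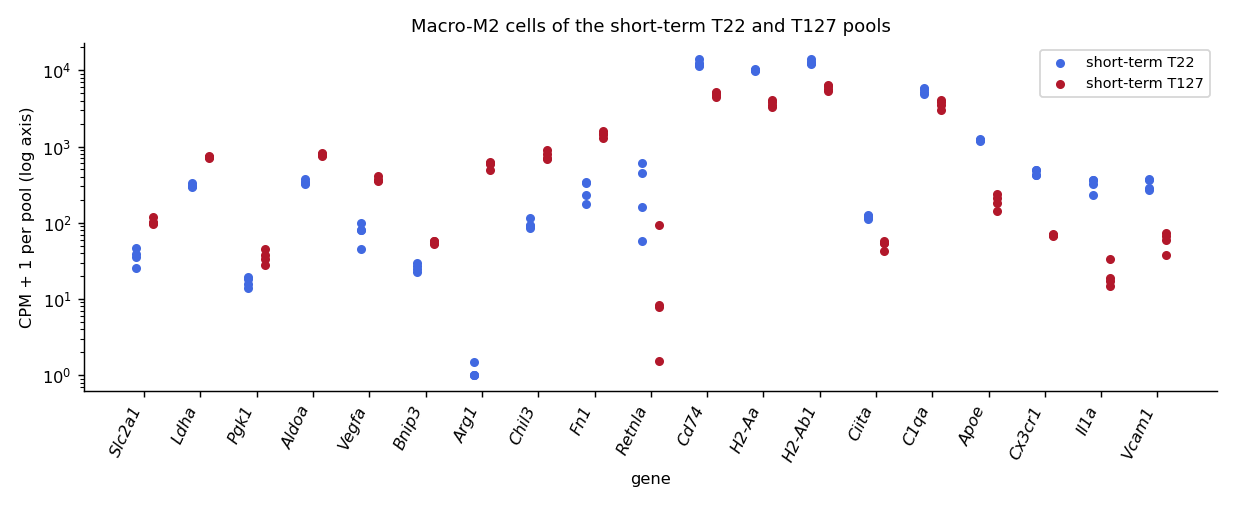
Level of 19 genes, as CPM plus 1 on a log axis, in each of the 4 short-term T22 (blue) and 4 short-term T127 (red) pools of Macro-M2. Glycolysis genes, Arg1, Chil3 and Fn1 are higher in every T127 pool, class II genes, Apoe, Cx3cr1 and Il1a are lower in every T127 pool, and Retnla overlaps.

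Sub-cluster 3 was the only sub-cluster with at least 50 cells in both short-term models, 106 in T22 and 50 in T127. In it Mrc1 was at 731 CPM in T127 and 373 CPM in T22, H2-Aa at 8773 and 10479 CPM, Retnla at 501 and 1552 CPM, and Arg1 at 6.86 CPM and 0. Gapdh was at 1003 and 519 CPM and Spp1 at 1609 and 207 CPM.

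Some of the widest ratios between the models were of genes high in malignant cells. Igfbp5, Wfdc18, Ecrg4 and Acta2, among the 10 most lowered genes in T127 Macro-M2, were at 8164, 12134, 8781 and 4223 CPM in T22 malignant cells and at 133, 112, 95.8 and 50.4 CPM in T22 T and NK cells. Spp1, 10.4-fold higher in T127 Macro-M2 (2156 CPM against 208 CPM), was at 4450 CPM in T127 malignant cells, 1178 CPM in T127 T and NK cells and 20.5 CPM in those of T22. Fn1 was at 4502 CPM in T127 malignant cells but at 79.7 CPM in the T and NK cells, against 1447 CPM in Macro-M2. Mrc1, Arg1, Cd74 and H2-Aa were at 50.3 CPM or less in malignant cells of both models. Hbb-bs was at 6.93, 22.7, 1021 and 9.57 CPM in the T127 pools, high in pool 3 alone.

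Markers of macrophages were present throughout, all 8 of the lineage list above 5 CPM in each experiment, with summed levels of 4513 to 5758 CPM (long-term), 5731 to 6068 CPM (T22) and 6188 to 6676 CPM (T127). Summed T cell markers reached at most 73.2, 122 and 48.4 CPM, B cell markers 139, 241 and 48.5 CPM and fibroblast markers 146, 50.0 and 58.3 CPM. Endothelial markers were at 39.0 to 61.5 CPM in T127 against 14.7 to 25.3 CPM in the other clusters, without overlap, and Pecam1, an adhesion molecule of endothelial cells and leukocytes, was counted as higher there, at 31.6 CPM against 11.1 CPM, and against T22 Macro-M2 (7.80 CPM). In the other experiments the endothelial sums overlapped. Neutrophil markers were at 113 to 722 CPM in the long-term pools, 19.5 to 51.3 CPM in T22 and 115 to 428 CPM in T127. Of the 7 markers, 5, 3 and 5 were over 5 CPM in the same order. Ly6g, the defining surface marker, was at 0 in both short-term models but above 0 in the long-term pools.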

How the data were processed

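Single-cell libraries of 16 pools (8 long-term, 4 short-term T22, 4 short-term T127) were analysed. The authors deposited raw UMI counts per gene and cell for 32285 genes with a cell annotation, made with Cell Ranger 6.0.0 and GRCm38 per the submitters' processing notes. Per their methods, they had dropped poor-quality cells and the doublets that Scrublet called, and no doublet caller was run here. Pool, group and treatment came from the labels, and cluster names from the annotation.

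Where a long-term barcode occurred in several pools its deepest copy was kept. Counts were summed per pool and cluster and scaled to CPM. A gene was counted at 5 CPM in either group and a 2-fold ratio (pseudocount 1 CPM). The ratio also had to lie in 1 direction in all pools with at least 10 cells on both sides, or, between experiments, be without overlap of pools. Intervals (95%) were exact, by Clopper-Pearson for shares, Poisson for levels and a conditional binomial for ratios. Cells are not replicates and tumors could not be told apart, so no test between groups was run and no p-value is given. Dixon's criterion was used for single pools. Shares of cells were taken after thinning to 3000 UMIs. Sub-clusters came from 2000 variable genes, 30 principal components, 20 neighbours and Leiden clustering at resolution 0.5 (igraph 0.11.9, leidenalg 0.10.2, scikit-learn 1.9.0, scipy 1.17.1). The counting step was tested on simulated data.

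Genes named are the 4 markers, the 20 highest and 10 lowest long-term ratios of counted genes at 50 CPM or more, the 10 highest and 10 lowest between models, up to 4 highest and all counted members of each gene list, and 5 leading genes per sub-cluster. The members and lists were chosen with earlier results of these data known, and H2-Eb1, H2-DMa, Iigp1, Ly6g and S100a9 are named after their values were seen. Alternatives tried were the pseudocount, fold, depth, normalisation, cell filters, shared barcodes, sub-cluster resolution and leaving out each pool.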

Additional observations from a re-analysis of the deposited data

Results flagged for a closer look

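In groups of 4 or 8 pools, the highest or lowest pool was set against the others by Dixon's criterion for 22 genes in Macro-M2 and for the share of Macro-M2 among monocytes and macrophages, in each of 3 experiments, and 5 of 69 series passed, where chance passes about 1 in 20 groups. F13a1 reached 412 CPM in long-term pool 8. Ccl2 was at 298 CPM in short-term T22 pool 2, below the other T22 pools. Retnla was at 91.2 CPM in short-term T127 pool 2, against less than 10 CPM in the other T127 pools. Arg1 and Lyve1 were each at 0.513 CPM in T22 pool 3, which is 1 UMI, with 0 in the other T22 pools. Such a series passes the criterion by construction, so the rate of 1 in 20 does not apply to the Arg1 and Lyve1 series.

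Arg1 lay in opposite directions in the short-term models, with a log2 ratio of Macro-M2 to the other monocytes and macrophages of -0.38 in T22 and 1.65 in T127. The T22 value rests on 1 UMI in Macro-M2 and 25 in the other clusters, and the difference between the models was not tested.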

How the results depend on the processing

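No paired analysis was possible because the results come from no test. Macro-M2 and the other clusters were compared within the same pools, whereas pool numbers of different experiments mark no shared animals. Of the alternatives for the main values, 135 stayed within 1.5 times the count, or within the spread of pools or the interval, 28 moved, and no value that met the counting rule changed sign. With a pseudocount of 10 CPM the genes counted were 46 (long-term), 120 (T22), 319 (T127), 103 (against Macro-M1), 84 (against Macro-others), 327 (against CD14-PF4) and 656 (between models). At 4-fold they were 4, 78, 223, 55, 31, 198 and 368 in the same order. With the mean of per-cell CPM, T22 gave 534. Within long-term pools 1 to 4, an alternative chosen after seeing the data, CD14-PF4 gave 2455, where fewer pools hold 10 of its cells. The share of Macro-M2 was 18.6% in the long-term experiment with every copy of a shared barcode kept, 11.9% in T22 for cells with at least 1000 genes, and 12.9% in T22 and 56.6% in T127 for cells of at least 3000 UMIs. Shares of long-term cells with a UMI at full depth and at 2000 UMIs were 61.8% and 36.6% for Mrc1, 71.8% and 32.4% for C5ar1, 97.5% and 70.3% for Cd68, and 27.0% and 15.9% for Ccl8. Leiden resolutions 0.3 and 0.8 gave 9 and 16 sub-clusters.

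Leaving out each pool in turn gave 157 to 174 genes (long-term), 318 to 328 (T22), 664 to 688 (T127), 250 to 288 (Macro-M1), 264 to 300 (Macro-others), 579 to 784 (CD14-PF4) and 1243 to 1311 (between models). Shares were 22.1 to 23.8%, 8.30 to 8.92% and 52.5 to 55.0%. The log2 ratio of Ccl8 in T22 ran from 0.17 to 1.16, and that of Cd68 in T22, which did not meet the counting rule, from -0.02 to 0.06, so its sign changed. The Cd68 ratio between the models, also not counted, ran from -0.02 to 0.05. The pools mix tumors, so spread between mice could not be measured. Low levels rest on few UMIs, and shares of cells with a UMI fell with depth for all 4 markers.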

Other observations

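Several sub-clusters held cells of more than 1 experiment, and their levels differed with it. In sub-cluster 2, Ccl8 was at 5171 CPM in long-term and 1151 CPM in T127 cells, H2-Aa at 2712 and 523 CPM, and Arg1 at 138 and 398 CPM. In sub-cluster 4, Mrc1 was at 384 CPM in long-term and 1400 CPM in T127 cells, Arg1 at 247 and 1142 CPM, and Vegfa at 128 and 663 CPM. In sub-cluster 3 the long-term cells had the highest Retnla, 3160 CPM, and the highest H2-Aa, 15658 CPM, of the 3 experiments.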
